A study of Homo sapiens with 4 samples.

Results

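The loci of DUSP1, DUSP4, DUSP6, SPRY2 and SPRY4 were examined in maps of Fra-1 and DDX5 binding made by chromatin immunoprecipitation and sequencing (ChIP-seq) in BT549, an established human breast cancer line whose cells are negative for oestrogen receptor alpha. The members were all peaks that overlapped, by at least 1 bp, a window of hg19 set around each gene. The windows were chromosome 5, 172175000 to 172220000 (DUSP1), chromosome 8, 29170000 to 29230000 (DUSP4), chromosome 12, 89725000 to 89765000 (DUSP6), chromosome 13, 80890000 to 80935000 (SPRY2) and chromosome 5, 141670000 to 141725000 (SPRY4). They held 35 of the 57601 peaks of the 4 deposited lists. From untreated cells of this line, 4 libraries were sequenced: 1 ChIP each with an antibody to Fra-1, an antibody to DDX5 and normal rabbit IgG as the control antibody, and 1 of input DNA (chromatin before immunoprecipitation). Each antibody was called by the authors once against input and once against IgG. The series was made to find binding events that Fra-1 and DDX5 share and events that belong to either alone. With 1 library per antibody there is no replicate, no difference could be tested, and no p-value is given. The total depth of each library is unknown here.

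The 5 genes encode brakes on the ERK kinase cascade, which carries growth factor signals from receptor tyrosine kinases to the nucleus. DUSP1, DUSP4 and DUSP6 are dual-specificity phosphatases that remove the activating phosphates from MAP kinases: DUSP1 and DUSP4 act in the nucleus, and DUSP6 is a cytoplasmic phosphatase selective for ERK. SPRY2 and SPRY4 are Sprouty proteins, which dampen signalling between the receptor and ERK. All 5 are known to be switched on by ERK signalling itself, which makes a negative feedback loop. Fra-1, encoded by FOSL1, is a Fos-family subunit of the transcription factor AP-1, and ERK phosphorylation stabilises it. DDX5 is an RNA helicase that also serves as a transcriptional coactivator.

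The promoter table used matched 4 of the 5 genes, all but DUSP4, and the sequences just upstream of these 4 are shown to give the letters at loci where a Fra-1 and a DDX5 peak overlapped. Each is the 250 bases before the annotated start of the gene on its own strand, from RefSeq on GRCh38.p14. They lie on the minus strand at chr5:172771196-172771445 (DUSP1), chr12:89352502-89352751 (DUSP6), chr13:80341127-80341376 (SPRY2, the outermost of 3 annotated starts) and chr5:142324248-142324497 (SPRY4). The peaks are placed on hg19, so which peak covers which of these stretches was not analysed here. Capitals mark the 2 motifs searched, TGANTCA, the AP-1 element, and TGACGTCA, the cyclic AMP response element. Both read the same on either strand.
DUSP1: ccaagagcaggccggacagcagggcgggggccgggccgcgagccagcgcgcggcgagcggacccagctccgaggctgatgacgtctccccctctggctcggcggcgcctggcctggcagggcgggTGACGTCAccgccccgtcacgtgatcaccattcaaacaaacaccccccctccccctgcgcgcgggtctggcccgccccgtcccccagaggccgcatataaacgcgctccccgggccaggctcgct
DUSP6: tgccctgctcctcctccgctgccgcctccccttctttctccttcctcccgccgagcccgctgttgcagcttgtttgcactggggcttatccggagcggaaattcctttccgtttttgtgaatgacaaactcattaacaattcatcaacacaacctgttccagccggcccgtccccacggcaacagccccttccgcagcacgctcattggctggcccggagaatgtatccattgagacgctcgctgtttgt
SPRY2: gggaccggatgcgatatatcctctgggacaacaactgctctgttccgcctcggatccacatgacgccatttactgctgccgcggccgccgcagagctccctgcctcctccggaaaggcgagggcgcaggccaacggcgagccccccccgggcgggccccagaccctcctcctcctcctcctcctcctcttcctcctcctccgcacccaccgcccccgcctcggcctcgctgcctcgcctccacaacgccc
SPRY4: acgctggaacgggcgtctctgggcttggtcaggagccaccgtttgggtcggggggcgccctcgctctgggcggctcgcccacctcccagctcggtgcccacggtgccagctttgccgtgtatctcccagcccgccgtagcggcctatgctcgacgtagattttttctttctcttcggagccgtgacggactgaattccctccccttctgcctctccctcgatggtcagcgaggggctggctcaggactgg
The DUSP1 stretch held 1 TGACGTCA, which begins 125 bases before the start. TGACGTCA occurred in 1.63% of the 34943 upstream stretches of the same length in the table, and TGANTCA in 6.59%. Neither motif was found in the stretches of DUSP6, SPRY2 (at any of its 3 starts) or SPRY4. A match is only a run of letters and not a binding site, and no match in this window says nothing of the rest of the locus.

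Fra-1 was listed at all 5 loci when called over input, in 19 peaks. DUSP1 held 11 of these, SPRY2 and SPRY4 held 3 each, and DUSP4 and DUSP6 held 1 each. DDX5 was also listed at all 5 over input, in 11 peaks: 3 each at DUSP6 and SPRY4, 2 each at DUSP1 and SPRY2, and 1 at DUSP4. Of fixed 50 kb stretches of the genome, 10.3% held at least 1 DDX5 peak over input, 3.40% at least 2 and 1.47% at least 3. For Fra-1 over input, 26.4% held at least 1 peak and 5.72% at least 3. The windows, unlike these stretches, were placed around genes and were 40 to 60 kb long. Over IgG the picture narrowed to 5 Fra-1 peaks, 4 at DUSP1 and 1 at SPRY2, and no DDX5 peak. The median fold of the 19 Fra-1 peaks was 4.40, against 5.37 in the whole list of 30571. The median of the 11 DDX5 peaks was 3.86, against 4.16 in the whole list of 10836. The fold is the authors' enrichment, (pileup + 1)/(control level around the peak + 1), and the pileup is how many ChIP fragments cover the summit. Of the 19 Fra-1 peaks, 6 reached 8-fold, 4 at DUSP1 and 1 each at DUSP6 and SPRY4, or 31.6%, beside 29.5% of the whole list. None of the 11 DDX5 peaks did, beside 2.28% of that list.

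**Figure D1:**
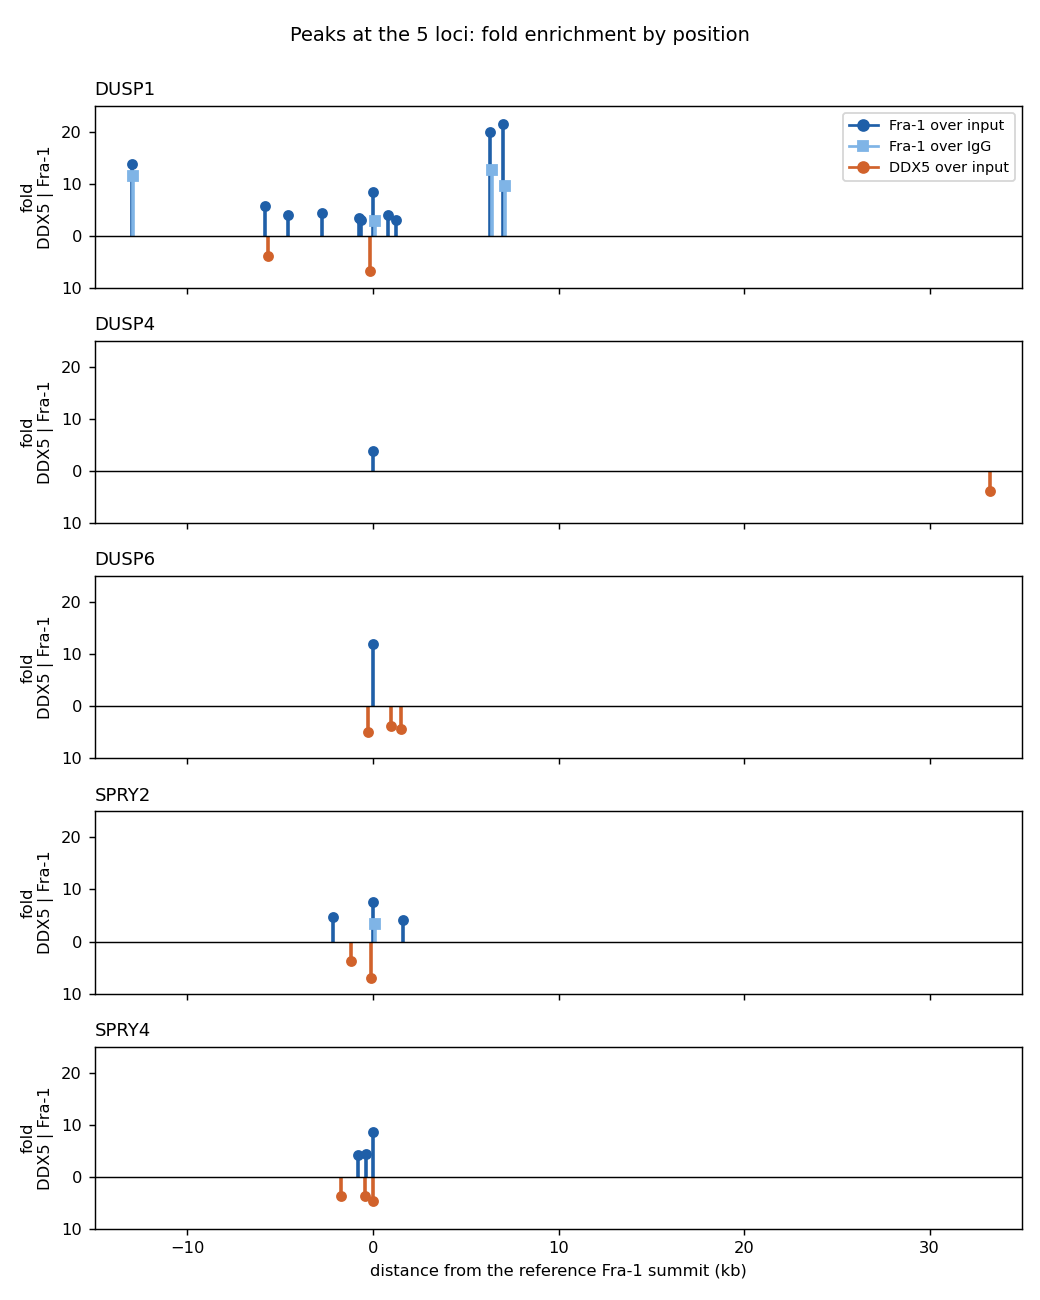
Fold enrichment (y axis) of the peaks at each locus against the distance in kb of their summits from a reference Fra-1 summit (x axis, in order of hg19 coordinates). The reference is the Fra-1 peak of highest fold among those over input that overlap a DDX5 peak, or at DUSP4 the only Fra-1 peak; Fra-1 stems point up and DDX5 stems down, and stems over IgG (squares) are drawn slightly to the right of their true position. The 3 tall DUSP1 peaks, 13.75-fold to 21.48-fold over input, stand away from the DDX5 stems. The reference peaks of DUSP1, DUSP6, SPRY2 and SPRY4 have a DDX5 stem within 261 bp. Whether a DDX5 peak overlaps is fixed by how both sets of peaks were chosen.

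DUSP1 had the densest Fra-1 binding of the 5 loci. Its Fra-1 peaks over input were split into 2 kinds after their values were seen. Its 11 Fra-1 peaks over input lay within 20.5 kb, at 172185095 to 172205606. Of 60658 fixed stretches of 50 kb along chromosomes 1 to 22 and X, 43 (0.0709%) held 11 or more Fra-1 peaks, although the window, unlike these stretches, was placed around a gene. When Fra-1 peaks at most 12.5 kb apart were joined, the 11 formed 1 group, and 57 of the 18162 groups in the list were as large or larger. Over IgG the locus held 4 Fra-1 peaks, and 631 of the 60658 stretches (1.04%) held as many or more. Joined the same way, the 4 formed groups of 1 and 3, and 1235 of 10576 groups held 3 or more.

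The first kind was 3 tall Fra-1 peaks, the ones that were listed over IgG and had no DDX5 peak. The tallest, at 172205094 to 172205606, had a pileup of 107 and was enriched 21.5-fold over input, above 96.2% of the list. The next, at 172204425 to 172204806, had a pileup of 96 and was enriched 19.9-fold, and its summit lay 705 bp from that of the first. On the other side of the locus, the peak at 172185095 to 172185492 reached a pileup of 66 and 13.8-fold, above 87.4% of the list. Over IgG, where the split requires them to be listed, the 3 reached 9.56-fold, 12.6-fold and 11.4-fold in the same order. Their summits lay on the same base as over input. The order of the first and second was thus the other way round over IgG. The IgG level, in fragments at the scale of the IgG library, was 9.0 under the first, 5.80 under the second and 4.20 under the third, and the median over all Fra-1 peaks called over IgG was 5.20. The input level under them was 3.87 to 4.03, below the list median of 4.45. The nearest DDX5 peaks over input were 6.15 to 7.04 kb away from the edges of these 3 peaks.

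The second kind was a run of 8 low to moderate Fra-1 peaks in the 7.36 kb between 172192310 and 172199673, with a median fold of 3.98 over input. The highest, at 172197967 to 172198624, had a pileup of 43 and an enrichment of 8.40-fold. The other 7 had pileups of 21 to 29 and folds of 2.96 to 5.70. None of these 7 was listed over IgG, which the split fixes for those without a DDX5 peak. The highest was listed over IgG, at 172198229 to 172198475, but at 2.79-fold, which put it at rank 15919 of the 16133 Fra-1 peaks in that list. The IgG level there was 13.0, the highest at any of the 5 members called over IgG. Its fold over IgG was 0.332 times its fold over input. For Fra-1 peaks called with both controls this ratio had a median of 0.799 and lay between 0.396 and 1.44 from the 5th to the 95th percentile. For the 3 tall peaks it was 0.445, 0.634 and 0.830. The input level over this run reached 6.78, under the peaks at 172197652 and 172199365, both 2.96-fold, which were the lowest folds of all 19 members. In the whole list, 4.55% of Fra-1 peaks had a fold this low or lower.

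Both DDX5 peaks of the DUSP1 locus lay in this run, where the split places every Fra-1 peak that overlaps a DDX5 peak. The larger, at 172197677 to 172198270, had a pileup of 35 and an enrichment of 6.80-fold over input, above 95.2% of the DDX5 list. It overlapped the highest Fra-1 peak of the run by 304 bp, with the summits 171 bp apart, and also the 2.96-fold Fra-1 peak at 172197652. The smaller, at 172192533 to 172192778, had a pileup of 17 and an enrichment of 3.81-fold, and lay wholly inside the 5.70-fold Fra-1 peak at 172192310 to 172192967. Neither was listed over IgG. In this locus, then, 3 of the 11 Fra-1 peaks over input overlapped a DDX5 peak, and the 3 of highest fold were not among them.

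At DUSP6, which encodes the ERK-selective cytoplasmic phosphatase, 1 Fra-1 peak was listed. It spanned 89745798 to 89746773 with its summit at 89746433, a pileup of 47 and an enrichment of 11.9-fold over input, above 83.7% of the list. With a width of 976 bp it was the widest of the members and wider than 97.96% of the list, whose median width was 317 bp. The input level under it was 3.02, the lowest value the list holds, at which 15.5% of the list sits. This peak was not listed over IgG. Of all Fra-1 peaks of 8-fold to under 12-fold over input, 95.5% were. A DDX5 peak at 89745698 to 89746369, whose pileup was 21 and whose fold was 4.96, overlapped it by 572 bp, and the summits lay 261 bp apart. A further 2 DDX5 peaks followed at 89747287 to 89747585 (pileup 13, 3.81-fold) and 89747735 to 89747972 (pileup 15, 4.35-fold), 513 and 961 bp beyond the end of the Fra-1 peak. Outside the window the nearest Fra-1 peaks over input were 105.0 kb before and 154.1 kb after it. Over the genome, 26.4% of fixed 50 kb stretches held at least 1 Fra-1 peak over input.

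At SPRY2 the leading Fra-1 and DDX5 peaks overlapped with nearly equal folds. The Fra-1 peak, at 80915121 to 80915776, had a pileup of 33 and was enriched 7.58-fold over input. The DDX5 peak, at 80915080 to 80915529, had a pileup of 25 and was enriched 7.07-fold, the highest DDX5 fold of the 5 loci and above 95.8% of the DDX5 list. The input level under it was 2.68, the lowest value of the DDX5 list, held by 18.1% of its peaks. The larger DDX5 peak of DUSP1 had a higher pileup, 35, over an input level of 4.29. The Fra-1 and DDX5 peaks of SPRY2 shared 409 bp, and the summits were 123 bp apart. The Fra-1 peak was listed over IgG at 80915327 to 80915677 with a fold of 3.35, above only 4.64% of that list. The IgG level there was 8.0. The DDX5 peak was not listed over IgG. The remaining Fra-1 peaks, at 80913163 to 80913452 (pileup 18, 4.72-fold) and 80917004 to 80917203 (pileup 17, 4.19-fold), had no DDX5 partner and were not listed over IgG. The other DDX5 peak, at 80914056 to 80914447 (pileup 13, 3.81-fold), lay between Fra-1 peaks, 603 bp from the nearest.

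At SPRY4 all 3 Fra-1 peaks over input lay within 1.28 kb, and DDX5 peaks ran alongside them. The highest Fra-1 peak, at 141705207 to 141705717, had a pileup of 42 and was enriched 8.59-fold. The DDX5 peak at 141705194 to 141705494 (pileup 20, 4.61-fold) overlapped it by 288 bp, and the 2 summits were 21 bp apart, the closest pair of the 5 loci. A second pair was formed by the Fra-1 peak at 141704853 to 141705111 (pileup 21, 4.33-fold) and the DDX5 peak at 141704784 to 141705053 (pileup 16, 3.68-fold), with summits 47 bp apart. The Fra-1 peak at 141704442 to 141704673 (4.18-fold) and the DDX5 peak at 141703569 to 141703997 (3.73-fold) had no partner. No peak of this locus was listed over IgG, that of 8.59-fold included.

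At DUSP4, which like DUSP1 encodes a nuclear phosphatase, no Fra-1 and DDX5 peak overlapped. The only Fra-1 peak over input in the window, at 29172888 to 29173410, had a pileup of 25 and a fold of 3.82, above 20.5% of the list. The only DDX5 peak, at 29206212 to 29206433, had a pileup of 22 and a fold of 3.86, above 36.7% of its list. These peaks were 32.8 kb apart. The Fra-1 peak nearest to the DDX5 peak lay 25009 bp away and just outside the window, at 29231443 to 29231650 (3.77-fold). Neither member was listed over IgG. The input level was 5.81 under the Fra-1 peak and 4.96 under the DDX5 peak. Both were above the list medians of 4.45 and 3.83, and no other DDX5 member reached 4.96.

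**Figure D2:**
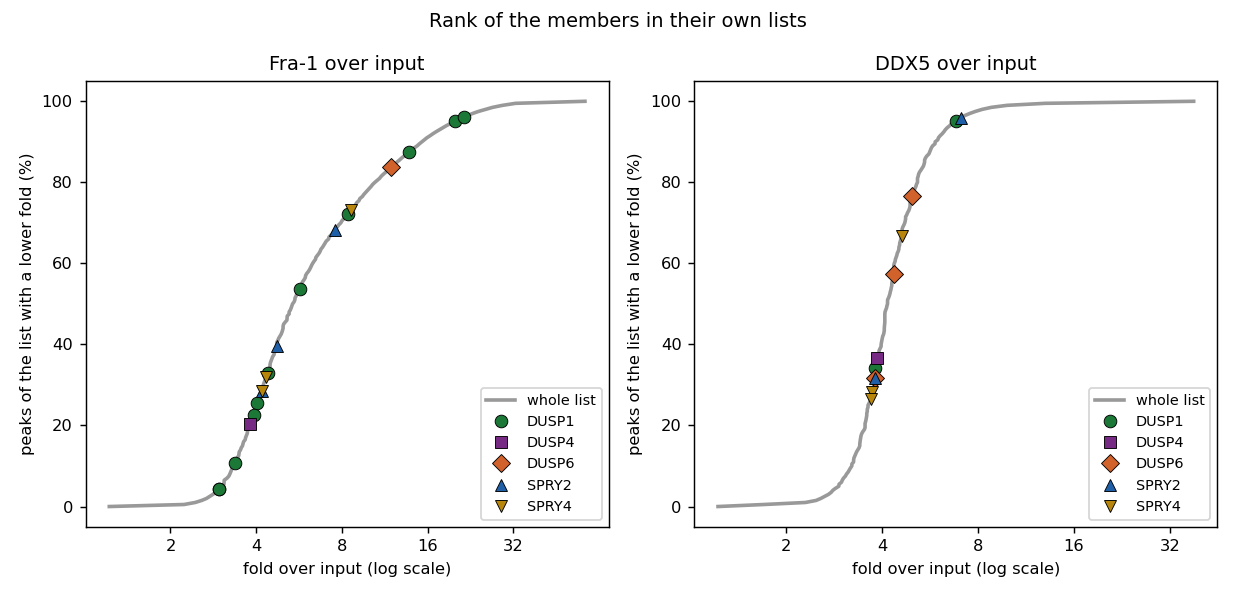
Fold over input (x axis, log scale) of each member against the percentage of its own list with a lower fold (y axis), for Fra-1 on the left and DDX5 on the right; symbols are the members by locus and the grey line is the whole list. The 2 highest Fra-1 members, both at DUSP1, stand above 95.1% of their list or more, and the 2 highest DDX5 members, at SPRY2 and DUSP1, above 95.2% or more.

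Across the 5 loci, 7 of 19 Fra-1 peaks over input (36.8%, 95% exact binomial interval 16.3% to 61.6%) overlapped a DDX5 peak over input, beside 21.8% of the whole list. The interval covers counting error only and contains the share of the whole list. The 7 lay at DUSP1 (3), SPRY4 (2), DUSP6 (1) and SPRY2 (1). In the other direction, 6 of 11 DDX5 peaks (54.5%, interval 23.4% to 83.3%) overlapped a Fra-1 peak, beside 61.8% of the whole list. At 4 of the 5 loci the DDX5 peak with the highest fold overlapped a Fra-1 peak. At SPRY2 and SPRY4 its partner was the Fra-1 peak with the highest fold of the locus. At DUSP6 its partner was the only Fra-1 peak listed, and at DUSP1 1 partner was the highest after the 3 tall peaks. How often leading peaks overlap at other loci was not analysed. Summits of the 7 overlapping pairs lay 21 to 453 bp apart. The 7 Fra-1 peaks with DDX5 had a median fold of 7.58 and a median width of 656 bp, and the 12 without had 4.19 and 299.5 bp. In the whole list the medians with and without DDX5 were 4.75 and 5.64 for the fold and 410.5 and 301 bp for the width. Of the 19, 7 were 500 bp or wider (36.8%, interval 16.3% to 61.6%), beside 18.8% of the whole list. Of these 7, 5 overlapped DDX5 (interval 29.0% to 96.3%), beside 41.9% of all Fra-1 peaks that wide. Both intervals contain the share beside them. The median fold of the peaks with DDX5 was thus the higher among the members and the lower in the whole list, with no test of either. The highest fold among the members went the other way, 11.9 with DDX5 and 21.5 without. The 2 lists over input share the input library, and its local level enters both folds. The DDX5 fold was lower than the Fra-1 fold in 6 of the 7 pairs, and higher at the 2.96-fold Fra-1 peak of DUSP1. The 7 pairs hold 6 DDX5 peaks, since 1 at DUSP1 is in 2 pairs. The share over all pairs of the lists is not given here. Over the whole lists the median fold of overlapping peaks was 4.75 for Fra-1 and 4.35 for DDX5. Since the folds come from different antibodies and libraries, they do not rank the amounts of the proteins.

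The members differed in whether they were listed with both controls. Among the 19 Fra-1 members over input, 5 (26.3%, interval 9.15% to 51.2%) were listed over IgG as well, beside 50.5% of the whole list. That interval contains the share of the whole list. Of the 6 members of at least 8-fold, 4 were (interval 22.3% to 95.7%), beside 97.6% of such peaks in the whole list. The 3 without DDX5, all at DUSP1, were all listed over IgG, beside 99.6% of such peaks. Of the 3 with DDX5, at DUSP1, DUSP6 and SPRY4, 1 was (interval 0.840% to 90.6%), beside 86.8%. The peaks of DUSP6 and SPRY4 thus belong to the 216 of 9028 Fra-1 peaks that reached 8-fold over input without being listed over IgG. Of those 216 peaks, 182 (84.3%) overlapped a DDX5 peak over input. Of the 5 members listed over IgG, 3 reached 8-fold over IgG (interval 14.7% to 94.7%), beside 38.8% of that list. Of the same 5, 2 overlapped a DDX5 peak over input (interval 5.27% to 85.3%), beside 8.68%. Of the 13 members under 8-fold, 1 was listed over IgG, at SPRY2 (interval 0.195% to 36.0%), beside 30.8% of such peaks. Each of the last 3 intervals contains the share beside it. None of the 11 DDX5 members was listed over IgG, beside 0.508% of the DDX5 list, and none of the 61 DDX5 peaks over IgG fell in the windows. For a peak that is not listed over IgG, the deposited lists give no IgG level.

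**Figure D3:**
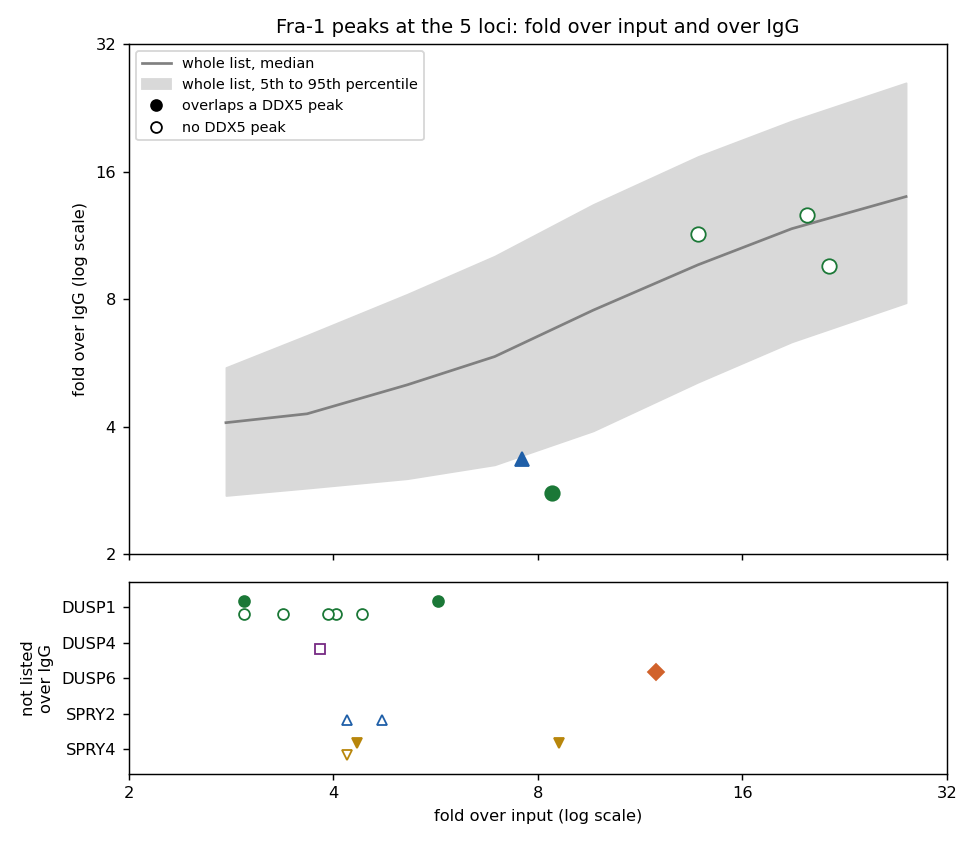
Fold over input (x axis) against fold over IgG (y axis), both on log scales, of Fra-1 peaks at the 5 loci; filled symbols overlap a DDX5 peak, and the lower panel holds the peaks not listed over IgG, by locus (circles DUSP1, square DUSP4, diamond DUSP6, upward triangles SPRY2, downward triangles SPRY4). The grey line and band are the median and the 5th to 95th percentiles, in bins of fold over input. They cover all Fra-1 peaks called with both controls. The 3 tall DUSP1 peaks lie inside the band, and the DUSP1 peak with DDX5 lies below it at 2.79-fold. The SPRY2 peak with DDX5, at 3.35-fold, lies at the lower edge, where the 5th percentile of its bin is 3.255-fold. The DUSP6 peak of 11.9-fold over input is in the lower panel.

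The windows have fixed edges, and some peaks lay just past them. At DUSP1 the nearest Fra-1 peaks over input outside the window were 6.80 kb before it (8.26-fold) and 7.11 kb after it (7.26-fold), both also listed over IgG, and the member nearest an edge was 10.1 kb inside. At SPRY4 a Fra-1 peak of 9.25-fold over input and 3.49-fold over IgG lay 11.2 kb past the end of the window, with a DDX5 peak of 5.40-fold over input beside it. At SPRY2 the nearest Fra-1 peak over input outside was 38.6 kb before the window (7.21-fold), and the nearest after it was 2356 kb away. In the RefSeq table of GRCh38.p14 the nearest protein-coding neighbours are NEURL1B and ERGIC1 for DUSP1, KIF13B and SARAF for DUSP4, KITLG and POC1B for DUSP6 (which the protein-coding gene POC1B-DUSP6 overlaps), NDFIP2 and SLITRK1 for SPRY2, and NDFIP1 and FGF1 for SPRY4. No expression was measured in these libraries, and a peak is named here by the window it falls in, not by the gene it acts on.

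The upstream stretches of other genes of the pathway were searched for the same motifs. The list held 26 genes, among them further DUSP, SPRY and SPRED family members, ERK targets such as EGR1 and PHLDA1, and the kinases and exchange factors of the cascade, and 20 of them were matched in the promoter table. TGANTCA was found for SPRED3 and SPRY3, and TGACGTCA for DUSP8 and NF1. For SPRED3 and SPRY3 the match was not at every annotated start, and for SPRY3 it was at an entry on chromosome Y. The share of all genes in the promoter table with a match is not given here. A gene counts here if any of its annotated starts holds the motif, so these counts are not on the scale of the shares per stretch given above. Peaks at these genes were not analysed here, since placing them needs an hg19 annotation.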

How the data were processed

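ChIP-seq with antibodies to Fra-1 and DDX5, an IgG control ChIP and input DNA gave 1 library each from untreated BT549 cells. The submitters' processing notes name CASAVA 1.8, Bowtie 0.12.9, HOMER (no version) and hg19, without the step each served; the peak caller is not given in the sources used here. No libraries were pooled. The deposited signal, per the file headers, is a pileup. It is scaled by 0.884 (Fra-1) and 0.998 (DDX5) in the lists over IgG, from peaks with the same summit in both lists of an antibody. The deposited fold enrichment is, per the file headers, a ratio. The authors' −log10 columns have header cells that are spreadsheet errors. The first was read as −log10 p, since it matched a Poisson upper tail (median difference 6.22e-06 in the Fra-1 list over input), and the second as −log10 q, since it was lower in 100% of peaks. All are the authors' values, used only to describe and rank peaks within a list.

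The control level was computed as (pileup plus 1)/fold minus 1. It is censored at the lowest background of a list, 3.02 for Fra-1 and 2.68 for DDX5 over input. Peaks were shared when they overlapped by at least 1 bp. The 95% interval of a share is the exact binomial one (Clopper-Pearson) and reflects counting error alone. Neighbouring peaks are not independent. Depth is unknown, so no limit on peaks that are not listed was computed. The overlap code was tested on simulated data. Python 3.11.15, numpy 2.4.6, pandas 2.3.3 and scipy 1.17.1 were used.

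The loci, motifs and the list of 26 genes were chosen with earlier results of these data known. By the naming rule, the leading Fra-1 peaks, every DDX5 peak and every Fra-1 peak overlapping one were named at each locus. The peak nearest each gene's start, the motifs at summits and the peaks at other genes need hg19 sequence or annotation and were not analysed. Alternatives were stricter thresholds, other overlap rules, other windows and the other control. The split of the DUSP1 peaks into 3 and 8 was made after their values were seen. The 3 were those listed over IgG and without a DDX5 peak over input.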

Additional observations from a re-analysis of the deposited data

How the results depend on the processing

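Over 7 results and 37 alternatives, 28 values stayed inside the main result's interval (for counts of peaks, within 1.5 times) and 9 moved; leaving out DUSP1 was added after the data were seen. At 8-fold or more the windows held 6 Fra-1 peaks over input, 3 over IgG and 0 DDX5 peaks over input, against 19, 5 and 11. At or above the list median of −log10 q they held 8, 3 and 5. Stricter thresholds lower a count by construction. Windows widened by 25 kb held 11 Fra-1 peaks over IgG. The share called again over IgG, 26.3%, became 66.7% at 8-fold or more over input, 40.7% with the widened windows and 12.5% without DUSP1. The share overlapping DDX5, 36.8%, became 10.5% with centres within 100 bp, a stricter rule, and 50% without DUSP1. The median fold of the Fra-1 peaks over input, 4.40, ranged from 4.40 to 4.72. For DDX5 peaks over IgG only the widened windows could have raised the count of 0, and they held none. The other alternatives for that count could only return 0, and they are among the 28. The shares rest on 19 and 11 peaks, and the intervals are as wide as such counts give. No paired analysis was possible because there is 1 library per antibody.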
